A study of Mus musculus with 12 samples.

Results

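Expression of 9 genes was described. Pcx encodes the mitochondrial enzyme pyruvate carboxylase. The other 8, Cs, Idh2, Idh3a, Ogdh, Suclg1, Fh1, Mdh1 and Mdh2, were listed under the tricarboxylic acid cycle. Mdh1 among them encodes the cytosolic malate dehydrogenase, which lies outside the cycle. The members were the rows of the deposited tables that carry these symbols, 9 of the 35013 genes listed. All 9 passed the filter on low counts and were tested among 13502 genes. RNA sequencing after poly-A selection was done on KP1 cells of the mouse, labelled LUAD (lung adenocarcinoma). They carried an NRF2 overexpression construct or an empty vector (EV); NRF2 is the transcription factor at the head of the antioxidant response. For 16 h they were exposed to romidepsin at 5 nM, which blocks class I histone deacetylases, or to its solvent DMSO. The 4 groups of 3 libraries were NRF2 cells with romidepsin, EV cells with romidepsin, NRF2 cells with DMSO and EV cells with DMSO. All 4 shared a plating in RPMI with serum on the day before treatment, after growth in DMEM. The design text calls the libraries biological replicates. The labels do not say how many transduced lines stood behind each genotype, nor which promoter drove NRF2, so p-values measure the spread between these cultures.

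The tricarboxylic acid cycle runs in the mitochondrial matrix, where acetyl groups from pyruvate, fatty acids and amino acids are joined to oxaloacetate and oxidised, and NADH and FADH2 pass to the respiratory chain. Intermediates leave the cycle for the synthesis of lipids, amino acids and nucleotides, and have to be replaced. Pyruvate carboxylase replaces them by making oxaloacetate from pyruvate, and glutamate dehydrogenase feeds in 2-oxoglutarate made from glutamate. Both routes are used by lung tumour cells.

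The libraries held 16842824 to 28003010 estimated counts. Mitochondrially encoded genes took 5.82 to 6.35% of them in the 6 romidepsin libraries, against 4.84 to 5.40% in 5 of the 6 DMSO libraries and 7.30% in NRF2 cells with DMSO, replicate 3. Levels are given in CPM, counts per 1000000 after TMM scaling between libraries, and are relative to all RNA of a library, so that fewer expressing cells and less RNA per cell cannot be told apart. Nfe2l2, the gene of NRF2, averaged 349 ± 13.8 CPM in NRF2 cells with romidepsin, against 96.3 ± 2.90 CPM in EV cells with romidepsin, and 305 ± 40.7 CPM in NRF2 cells with DMSO, against 102 ± 1.37 CPM in EV cells with DMSO (SD, n = 3). NRF2 cells with DMSO, replicate 3, stood apart: its root-mean-square log2 distance from the other libraries of its group was 0.465, against 0.255 to 0.350 for the other 11 libraries within theirs. Calls of members that change without it are named where they stand. Of the lung epithelium markers, Krt7, Krt8, Krt18 and Cdh1 were present at about 225 CPM or more in every library. Epcam ranged from 0 to 7.47 CPM, and Nkx2-1, Sftpc and Sftpb stayed at or under 0.246, 0.0703 and 0.214 CPM. The sum over these 8 markers was 8323 to 8797 CPM in NRF2 cells with romidepsin, 5421 to 5499 CPM in EV cells with romidepsin, 5008 to 5717 CPM in NRF2 cells with DMSO and 3456 to 3504 CPM in EV cells with DMSO. Krt7, Krt8 and Krt18 made up most of the sum and were called higher with romidepsin in both lines. Cdh1 went the other way, with 225 to 230 CPM in NRF2 cells with romidepsin, against 406 to 424 CPM with DMSO, and 235 to 256 CPM in EV cells with romidepsin, against 344 to 366 CPM with DMSO (log2 -0.88 ± 0.04 and -0.52 ± 0.04; edgeR adjusted p = 3.1e-12 and 5.7e-09). The leukocyte sum of 4 markers was 66.8 to 70.7, 48.4 to 52.96, 3.92 to 4.52 and 2.83 to 4.38 CPM in the same 4 groups and was almost all Cd68, while Ptprc and Cd3e stayed at or under 0.566 and 0.0983 CPM. The fibroblast sum of 6 markers was 11.4 to 14.1, 9.16 to 9.82, 1.79 to 3.21 and 1.12 to 1.77 CPM, with Lum and Dcn at or under 0.0606 and 0.182 CPM. The endothelium sum of 4 markers was 6.43 to 8.32, 5.60 to 8.35, 4.12 to 4.96 and 5.67 to 10.1 CPM, with Cdh5 and Tek at or under 0.142 and 0.121 CPM. The part of the markers and of the mitochondrial share in the results below was not tested.

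Promoter windows of 250 bases before each listed start were taken from RefSeq on build GRCm38.p6, where 8 of the 9 members were found under their symbols (all but Idh3a). They had 14 windows, 2 for Pcx, 6 for Ogdh and 1 for each of the others. Not all lie before the gene positions given below. The Mdh1 window, Pcx window 2 and Ogdh windows 4 to 6 lie inside the gene. Those of Idh2, Suclg1 and Mdh2 and Ogdh window 3 overlap it, whereas the windows shown lie before it. The first listed windows of Pcx, Ogdh and Fh1 are shown, since these genes had the largest, the second largest and the smallest called rise with romidepsin in EV cells. Capitals mark 4 motifs searched on both strands. The E-box was spelled CACGTG and the cAMP response element TGACGTCA, and both read the same on either strand. The CCAAT box was spelled CCAAT, which reads ATTGG when it lies on the reverse strand. The GC box was spelled GGGCGG, which reads CCGCCC when it lies on the reverse strand. No marked motif overlapped another in the windows shown.
Pcx, chr19:4510222-4510471, plus strand: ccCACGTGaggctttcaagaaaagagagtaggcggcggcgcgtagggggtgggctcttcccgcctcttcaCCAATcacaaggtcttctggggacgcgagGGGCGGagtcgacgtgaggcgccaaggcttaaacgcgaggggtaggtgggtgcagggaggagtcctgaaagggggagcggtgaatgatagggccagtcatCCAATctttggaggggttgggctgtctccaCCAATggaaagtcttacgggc
Ogdh, chr11:6291347-6291596, plus strand: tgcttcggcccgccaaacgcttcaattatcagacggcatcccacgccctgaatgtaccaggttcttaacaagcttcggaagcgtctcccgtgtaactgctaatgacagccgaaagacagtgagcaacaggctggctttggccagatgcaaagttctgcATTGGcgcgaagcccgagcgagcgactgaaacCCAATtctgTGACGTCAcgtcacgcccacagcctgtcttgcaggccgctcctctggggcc
Fh1, chr1:175625636-175625885, minus strand: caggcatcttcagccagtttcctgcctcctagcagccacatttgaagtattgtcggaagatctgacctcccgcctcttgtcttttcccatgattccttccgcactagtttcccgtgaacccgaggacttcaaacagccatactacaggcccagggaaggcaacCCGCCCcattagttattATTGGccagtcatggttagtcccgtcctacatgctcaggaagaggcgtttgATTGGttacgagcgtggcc

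The Pcx window shown held 1 E-box, 3 CCAAT boxes and 1 GC box, and the other Pcx window, further downstream, held none of the 4 motifs. Over all 32851 windows of this length these were found in 6.02, 33.9 and 32.7%. They were not particular to Pcx among the members. The E-box also stood in Ogdh windows 4 to 6, and the windows of Cs, Idh2, Fh1 and Mdh1 each held CCAAT and GC boxes. That of Suclg1 held none of the 4 motifs. TGACGTCA, found in 1.55% of all windows, stood in 3 of the 6 Ogdh windows, which overlap each other, and in that of Mdh2. The core of the antioxidant response element that NRF2 binds, TGACNNNGC, was in 10.2% of all windows and in none of the members' windows. A match is a string of letters and no site, and a missing match says nothing of binding elsewhere.

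Pyruvate carboxylase moved most. Pcx (ENSMUSG00000024892.17; GRCm38 chromosome 19, 4510472 to 4621752, plus strand) read 197, 201 and 202 CPM in NRF2 cells with romidepsin and 102, 99.1 and 104 CPM in EV cells with romidepsin. It read 34.4, 32.5 and 27.4 CPM in NRF2 cells with DMSO and 16.5, 16.0 and 17.9 CPM in EV cells with DMSO. The 4 groups did not overlap and stood in that order. Romidepsin raised Pcx by 6.04-fold in EV cells (log2 2.59 ± 0.07, SE; edgeR adjusted p = 2.2e-15) and by 6.34-fold in NRF2 cells (log2 2.67 ± 0.07; edgeR adjusted p = 4.2e-16). NRF2 raised it by 1.96-fold with romidepsin (log2 0.97 ± 0.06; edgeR adjusted p = 1.8e-09) and by 1.87-fold with DMSO (log2 0.90 ± 0.07; edgeR adjusted p = 3.8e-08). The interaction, the romidepsin effect in NRF2 cells minus that in EV cells, was 0.07 ± 0.09 log2 with a 95% interval of -0.13 to 0.27 (edgeR adjusted p = 0.67), and it read -0.03 without NRF2 cells with DMSO, replicate 3. By fold change Pcx stood at place 930 from the highest of 13502 genes for romidepsin in EV cells and 971 in NRF2 cells. For NRF2 it stood at place 619 with romidepsin and 798 with DMSO.

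**Figure D1:**
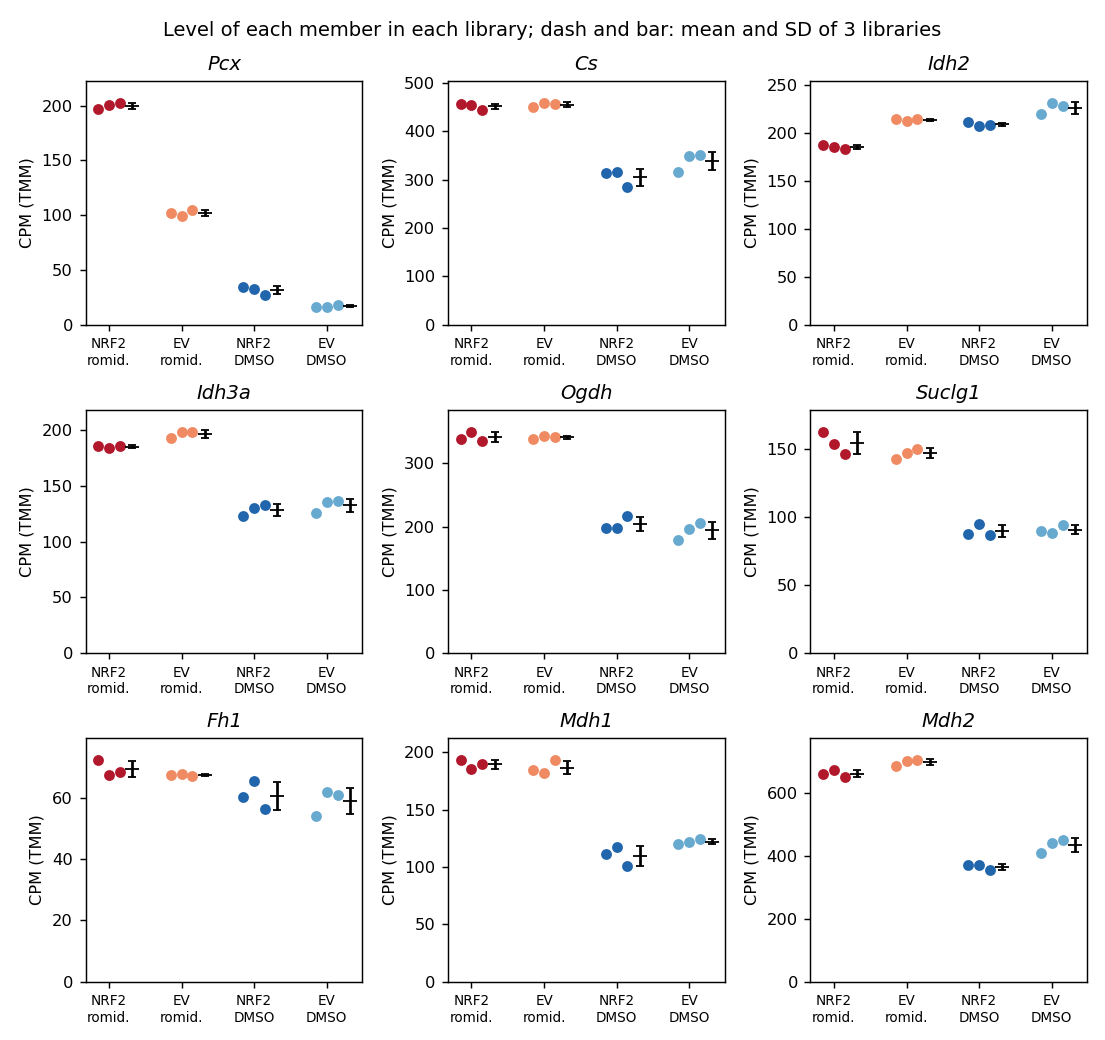
Levels of the 9 members in CPM (linear axes from 0) in each of the 12 libraries, by group, with points for libraries and a dash and bar for the mean and SD of each group. The Pcx groups form 4 steps, from 197 to 202 CPM in NRF2 cells with romidepsin down to 16.0 to 17.9 CPM in EV cells with DMSO, whereas Idh2 is lowest in NRF2 cells with romidepsin.

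Romidepsin moved most of the members in one direction. In EV cells 8 of the 9 members rose, 0 fell and Idh2 was not called, where 39.1% of all genes tested rose and 37.4% fell. In NRF2 cells 8 rose and Idh2 fell, where 40.5% of all genes rose and 39.3% fell. The members' median change was 0.61 log2 in EV cells and 0.74 log2 in NRF2 cells, beside 0.011 and 0.015 over all genes. The 2 comparisons used different libraries. Without NRF2 cells with DMSO, replicate 3, the counts were 8 higher and 1 lower in each line, Idh2 being called lower also in EV cells.

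Citrate synthase, Cs (ENSMUSG00000005683.8; chromosome 10, 128337734 to 128362479, plus strand), joins acetyl-CoA to oxaloacetate in the first step. It read 455, 454 and 444 CPM in NRF2 cells with romidepsin, against 313, 315 and 285 CPM in NRF2 cells with DMSO. In EV cells it read 450, 458 and 457 CPM with romidepsin, against 316, 348 and 350 CPM with DMSO. Every romidepsin library lay above every DMSO library, and the rise was 1.48-fold in NRF2 cells (log2 0.57 ± 0.05; edgeR adjusted p = 7.0e-09) and 1.35-fold in EV cells (log2 0.43 ± 0.05; edgeR adjusted p = 3.5e-07).

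The 2 isocitrate dehydrogenases among the members parted. Idh3a (ENSMUSG00000032279.11; chromosome 9, 54586334 to 54604661, plus strand), the catalytic alpha subunit of the NAD-dependent enzyme, read 186, 183 and 186 CPM in NRF2 cells with romidepsin, against 123, 130 and 133 CPM with DMSO. EV cells had 192, 198 and 198 CPM with romidepsin, against 126, 136 and 136 CPM with DMSO, and the groups did not overlap in either line. Its rise was 1.44-fold in NRF2 cells and 1.48-fold in EV cells (log2 0.53 ± 0.05 and 0.57 ± 0.05; edgeR adjusted p = 6.0e-09 and 2.8e-09). Idh2 (ENSMUSG00000030541.16; chromosome 7, 80094846 to 80115392, minus strand) encodes the mitochondrial NADP-dependent enzyme, which makes or uses NADPH. It read 187, 185 and 183 CPM in NRF2 cells with romidepsin, against 211, 207 and 208 CPM in NRF2 cells with DMSO. EV cells gave 214, 212 and 214 CPM with romidepsin, against 220, 231 and 228 CPM with DMSO. All romidepsin libraries lay below the DMSO libraries of their line. The fall was called in NRF2 cells (log2 -0.17 ± 0.04; edgeR adjusted p = 4.4e-04), but not with upper-quartile or library-size scaling (edgeR adjusted p = 0.12 and 0.40). In EV cells the value was -0.08 ± 0.04 log2 (edgeR adjusted p = 0.056), and its sign turned with upper-quartile and library-size scaling.

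2-oxoglutarate dehydrogenase and succinyl-CoA ligase follow. Ogdh (ENSMUSG00000020456.17; chromosome 11, 6291633 to 6356642, plus strand), the substrate-binding subunit of the 2-oxoglutarate dehydrogenase complex, read 338, 350 and 334 CPM in NRF2 cells with romidepsin, against 198, 198 and 216 CPM with DMSO. In EV cells it read 338, 343 and 341 CPM with romidepsin, against 179, 197 and 206 CPM with DMSO. The romidepsin libraries spanned a narrow range and lay well above all DMSO libraries. Ogdh rose 1.67-fold in NRF2 cells and 1.76-fold in EV cells (log2 0.74 ± 0.05 and 0.81 ± 0.05; edgeR adjusted p = 3.0e-10 and 1.2e-10). Suclg1 (ENSMUSG00000052738.14; chromosome 6, 73248382 to 73276911, plus strand), the alpha subunit shared by both forms of succinyl-CoA ligase, read 163, 154 and 147 CPM in NRF2 cells with romidepsin, against 87.6, 94.8 and 86.9 CPM with DMSO. EV cells had 143, 148 and 150 CPM with romidepsin, against 90.3, 88.4 and 94.5 CPM with DMSO. The groups did not overlap, and Suclg1 rose 1.72-fold in NRF2 cells and 1.61-fold in EV cells (log2 0.78 ± 0.05 and 0.69 ± 0.05; edgeR adjusted p = 1.3e-10 and 1.0e-09).

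Fumarate hydratase had the smallest called rise with romidepsin in each line. Fh1 (ENSMUSG00000026526.14; chromosome 1, 175600374 to 175625635, minus strand) read 72.3, 67.5 and 68.3 CPM in NRF2 cells with romidepsin, against 60.3, 65.4 and 56.3 CPM with DMSO. EV cells gave 67.3, 67.8 and 67.3 CPM with romidepsin, against 54.0, 61.9 and 61.0 CPM with DMSO. The groups did not overlap, but the gap was a few CPM. The rise was 1.14-fold in each line (log2 0.19 ± 0.06 in both; edgeR adjusted p = 0.0078 in NRF2 cells and 0.0076 in EV cells). It was not called without NRF2 cells with romidepsin, replicate 1, in NRF2 cells, nor without EV cells with DMSO, replicate 1, in EV cells (edgeR adjusted p = 0.062 for each).

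Malate dehydrogenase exists as a mitochondrial form, Mdh2, which closes the cycle, and a cytosolic form, Mdh1. Both serve the malate-aspartate shuttle that carries NADH equivalents between the compartments. Mdh2 (ENSMUSG00000019179.10; chromosome 5, 135778480 to 135790398, plus strand) read 659, 673 and 649 CPM in NRF2 cells with romidepsin, against 370.4, 370.1 and 355 CPM with DMSO. In EV cells it read 685, 702 and 703 CPM with romidepsin, against 408, 442 and 451 CPM with DMSO. It rose 1.81-fold in NRF2 cells and 1.61-fold in EV cells (log2 0.86 ± 0.05 and 0.68 ± 0.05; edgeR adjusted p = 7.7e-12 and 2.3e-10), with no overlap between the groups. Mdh1 (ENSMUSG00000020321.15; chromosome 11, 21556787 to 21572367, minus strand) read 193, 186 and 190 CPM in NRF2 cells with romidepsin, against 111, 118 and 101 CPM with DMSO. EV cells had 185, 182 and 193 CPM with romidepsin, against 120, 122 and 124 CPM with DMSO. It rose 1.72-fold in NRF2 cells and 1.53-fold in EV cells (log2 0.79 ± 0.05 and 0.61 ± 0.05; edgeR adjusted p = 1.6e-10 and 6.5e-09), again with separate groups.

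With NRF2 overexpression, the members besides Pcx that were called were lower, 1 of 8 with romidepsin and 4 of 8 with DMSO. With romidepsin, Pcx rose, Idh2 fell and 7 of the 9 members were not called, where 23% of all genes rose and 22.4% fell. Idh2 lay at 183 to 187 CPM in NRF2 cells, against 212 to 214 CPM in EV cells (log2 -0.21 ± 0.04; edgeR adjusted p = 3.0e-04). Idh3a and Mdh2 had separate groups, with changes of -0.09 ± 0.04 and -0.08 ± 0.04 log2 (edgeR adjusted p = 0.13 and 0.18). Both were called without NRF2 cells with DMSO, replicate 3, whose spread enters the shared fit, at edgeR adjusted p = 0.019 and 0.022, and then 3 members were lower. For Cs the difference was -0.01 log2 with a 95% interval of -0.11 to 0.09, and for Ogdh it was 0.00 log2 with an interval of -0.11 to 0.11.

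With DMSO, Pcx rose and Cs, Idh2, Mdh1 and Mdh2 fell in NRF2 cells, 1 member higher and 4 lower, where 19.3% of all genes rose and 16.9% fell. Mdh2 lay at 355 to 370.4 CPM in NRF2 cells, against 408 to 451 CPM in EV cells, with no overlap (log2 -0.25 ± 0.05; edgeR adjusted p = 3.3e-04). Idh2 fell by 0.12 ± 0.04 on the log2 scale (edgeR adjusted p = 0.025) with separate groups. Cs and Mdh1 each fell by 0.15 ± 0.05 on the log2 scale (edgeR adjusted p = 0.024 and 0.029), Cs with 285 to 315 CPM in NRF2 cells, against 316 to 350 CPM in EV cells. The Cs call was lost without EV cells with DMSO, replicate 2 or 3 (edgeR adjusted p = 0.0999 and 0.11). The Idh2 call was lost without EV cells with DMSO, replicate 2 or 3, or NRF2 cells with DMSO, replicate 2, at edgeR adjusted p of 0.101, 0.0796 and 0.0906. For Mdh1 it was lost without EV cells with DMSO, replicate 2 or 3, or NRF2 cells with DMSO, replicate 3, at edgeR adjusted p of 0.0663, 0.0967 and 0.0831. Idh3a, Ogdh, Suclg1 and Fh1 were not called, with differences between -0.05 and 0.07 log2. That of Suclg1 read 0.006 without NRF2 cells with DMSO, replicate 3, where it was -0.02 with all libraries.

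For the interaction 0 of the 9 members were called by edgeR, where 5.53% of all genes had a positive and 10.2% a negative interaction. At an unadjusted p under 0.05 there were 2, Mdh2 with 0.17 ± 0.06 log2 (edgeR adjusted p = 0.081) and Mdh1 with 0.18 ± 0.07 log2 (edgeR adjusted p = 0.12). DESeq2 called 1, Mdh2 (DESeq2 adjusted p = 0.028), which edgeR also called with library-size scaling (edgeR adjusted p = 0.040) and without EV cells with DMSO, replicate 1 (edgeR adjusted p = 0.029). The 2 NRF2 comparisons and the 2 romidepsin comparisons share libraries with the interaction, so their values are given side by side and were not correlated.

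**Figure D2:**
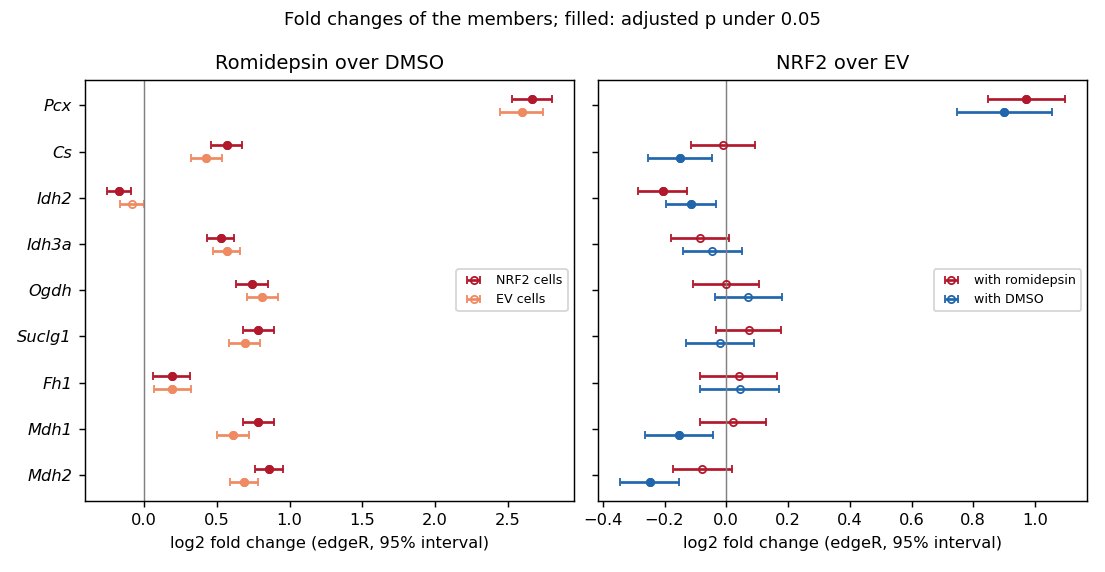
Log2 fold changes of the 9 members with 95% intervals for romidepsin against DMSO and for NRF2 against EV. Filled points have an edgeR adjusted p under 0.05. Romidepsin values of Pcx lie at 2.67 in NRF2 cells and 2.59 in EV cells, the other called rises between 0.19 and 0.86, and Idh2 lies below 0 in all 4 comparisons.

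Members that stand for one enzyme did not move with the other subunits of that enzyme. A list of 10 further cycle subunits was taken from general knowledge. Romidepsin raised 1 of them and lowered 6 in NRF2 cells, and raised 1 and lowered 5 in EV cells, beside the background shares given above. The 8 members other than Pcx, the cytosolic Mdh1 included, were counted together with these 10 subunits. Of the 18, 8 rose and 7 fell in NRF2 cells, with a median of 0.02 log2. In EV cells 8 rose and 5 fell, with a median of 0.04 log2. The 8 members other than Pcx had 7 rises in each line when counted alone.

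Succinyl-CoA ligase showed the widest gap. Suclg2, its GTP-specific beta subunit, read 28.6, 23.9 and 28.01 CPM in NRF2 cells with romidepsin, against 71.7, 73.4 and 83.7 CPM with DMSO. EV cells gave 42.0, 45.9 and 42.6 CPM with romidepsin, against 84.6, 87.3 and 88.5 CPM with DMSO. The alpha subunit Suclg1 had risen in the same libraries, while Suclg2 fell by 1.51 ± 0.07 on the log2 scale in NRF2 cells and by 0.996 ± 0.07 in EV cells (edgeR adjusted p = 1.4e-12 and 3.3e-10). Sucla2, the ATP-specific beta subunit, fell by 0.39 ± 0.06 and by 0.27 ± 0.06 on the log2 scale in the same lines (edgeR adjusted p = 1.5e-05 and 8.7e-04). The ratio of Suclg1 to Suclg2 counts, not scaled for length, was 5.24 to 6.43 in NRF2 cells with romidepsin, 3.22 to 3.53 in EV cells with romidepsin, 1.04 to 1.29 in NRF2 cells with DMSO and 1.01 to 1.07 in EV cells with DMSO. This pair was chosen after its values were seen and was given no test.

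NAD-dependent isocitrate dehydrogenase and the 2-oxoglutarate dehydrogenase complex also split. Idh3g, the regulatory gamma subunit, fell by 0.46 ± 0.06 in NRF2 cells and by 0.45 ± 0.06 in EV cells on the log2 scale (edgeR adjusted p = 5.7e-07 and 9.8e-07), whereas Idh3a rose. Counts of Idh3a over those of Idh3g were 1.74 to 1.93 in NRF2 cells with romidepsin, against 0.896 to 1.03 with DMSO. In EV cells they were 1.81 to 1.95 with romidepsin, against 0.910 to 0.939 with DMSO. Idh3b, another subunit of the enzyme, was not called in either line. Dld, the dihydrolipoyl dehydrogenase that the 2-oxoglutarate and pyruvate complexes share, fell by 0.49 ± 0.05 and by 0.31 ± 0.05 on the log2 scale (edgeR adjusted p = 8.2e-08 and 2.8e-05 in NRF2 and EV cells), whereas Ogdh rose. Dlst, the succinyltransferase core of that complex, fell in NRF2 cells by 0.11 ± 0.04 on the log2 scale (edgeR adjusted p = 0.021). RLE, upper-quartile and library-size scaling each ended that call (edgeR adjusted p = 0.10, 0.94 and 0.43), and upper-quartile and library-size scaling turned its sign. The call was also lost with DESeq2 (DESeq2 adjusted p = 0.060) and limma-trend (limma adjusted p = 0.076). A filter of 1 CPM in 3 libraries and the groups compared alone ended it too (edgeR adjusted p = 0.0503 and 0.078). So did leaving out NRF2 cells with DMSO, replicate 1, or NRF2 cells with romidepsin, replicate 2 or 3.

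Of succinate dehydrogenase, which also serves as complex II of the respiratory chain, the membrane subunit Sdhc rose by 0.75 ± 0.07 log2 in NRF2 cells and 0.66 ± 0.07 log2 in EV cells (edgeR adjusted p = 3.6e-08 and 2.3e-07). Its partner Sdhd fell by 0.21 ± 0.06 and by 0.18 ± 0.06 on the log2 scale (edgeR adjusted p = 0.0026 and 0.0079), calls that upper-quartile and library-size scaling end in both lines. Sdha and Sdhb were not called. For NRF2 against EV, 2 of the 10 further subunits rose and 1 fell with romidepsin, and 4 rose and 1 fell with DMSO. Of all genes tested, 23% rose and 22.4% fell with romidepsin, and 19.3% rose and 16.9% fell with DMSO. Sucla2 and Idh3b were higher in NRF2 cells with romidepsin (log2 0.26 ± 0.06 and 0.20 ± 0.04; edgeR adjusted p = 0.0031 and 5.8e-04) and with DMSO (log2 0.37 ± 0.06 and 0.21 ± 0.04; edgeR adjusted p = 1.3e-04 and 5.7e-04). The subunit that fell was Suclg2, by 0.70 ± 0.07 on the log2 scale with romidepsin (edgeR adjusted p = 7.4e-07) and by 0.19 ± 0.07 with DMSO (edgeR adjusted p = 0.031). The call with DMSO was lost without EV cells with DMSO, replicate 2 or 3, or NRF2 cells with DMSO, replicate 1 or 2. Suclg2 was also the one subunit of the 10 with a called interaction, where 5.53% of all genes had a positive and 10.2% a negative one.

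**Figure D3:**
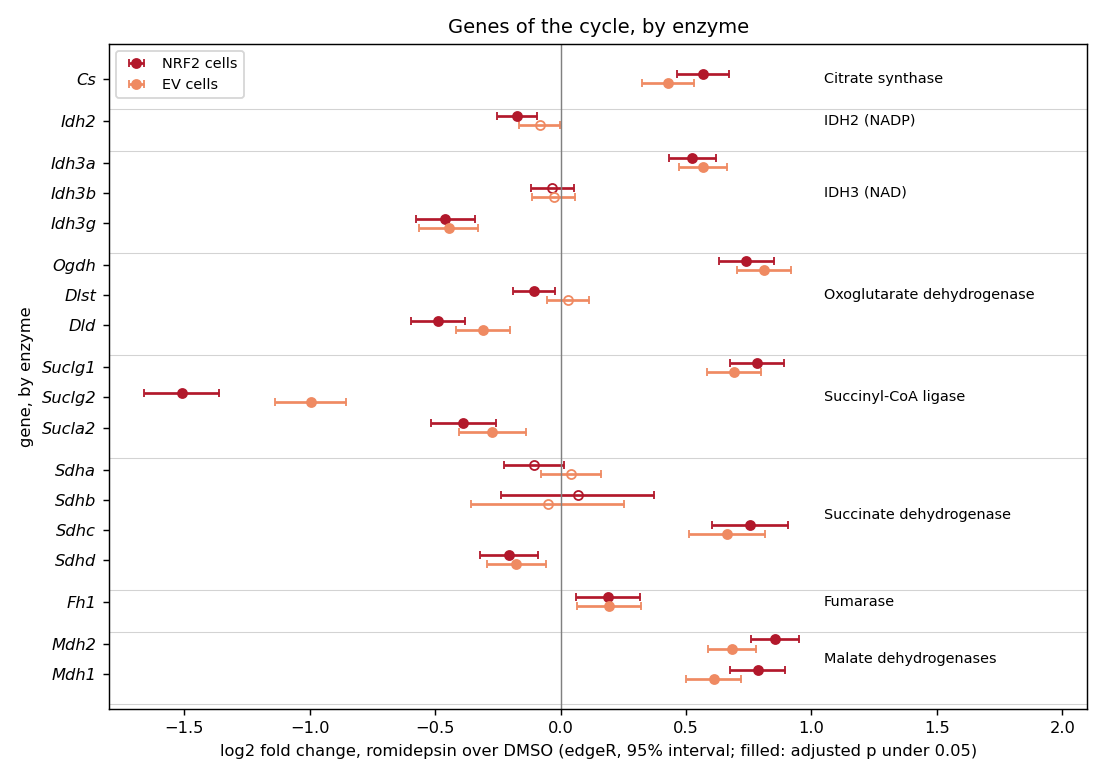
Log2 fold changes with romidepsin for subunits of cycle enzymes and the cytosolic Mdh1, in NRF2 and EV cells, with 95% intervals. Suclg1 lies above 0 at 0.78 and 0.69 while Suclg2 lies at -1.51 and -0.996, and Idh3a and Idh3g lie on opposite sides of 0.

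Genes for the entry of pyruvate moved in both directions. Of 12 listed, 11 were tested (Pdk4 was not), and romidepsin raised 6 and lowered 3 in NRF2 cells and raised 6 and lowered 5 in EV cells. Of all genes tested, 40.5% rose and 39.3% fell in NRF2 cells, and 39.1% rose and 37.4% fell in EV cells. Pdk2, a kinase that switches off pyruvate dehydrogenase, read 24.6, 28.5 and 28.5 CPM in NRF2 cells with romidepsin, against 4.62, 4.76 and 5.27 CPM with DMSO. In EV cells it read 18.9, 16.3 and 19.5 CPM with romidepsin, against 4.27, 3.79 and 3.90 CPM with DMSO. This was a rise of 5.59-fold in NRF2 cells and 4.57-fold in EV cells (log2 2.48 ± 0.10 and 2.192 ± 0.11; edgeR adjusted p = 1.9e-13 and 3.2e-12). Mpc1, a subunit of the mitochondrial pyruvate carrier, rose 1.93-fold and 1.86-fold (edgeR adjusted p = 9.9e-11 and 4.3e-10), and its partner Mpc2 rose 1.79-fold in NRF2 cells and 1.48-fold in EV cells (edgeR adjusted p = 1.2e-07 and 2.1e-05). Pdk1, another such kinase, fell by 0.71 ± 0.06 and by 0.83 ± 0.06 on the log2 scale (edgeR adjusted p = 1.0e-08 and 1.6e-09), and Pdp1, a phosphatase that switches the enzyme on, rose 1.55-fold in NRF2 cells and 1.70-fold in EV cells (edgeR adjusted p = 1.2e-08 and 1.2e-09).

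NRF2 against EV gave 4 rises and 3 falls of the 11 with romidepsin, and 2 rises and 4 falls with DMSO. The shares of all genes were 23% higher and 22.4% lower with romidepsin, and 19.3% higher and 16.9% lower with DMSO. Pdha1, the E1 alpha subunit of pyruvate dehydrogenase, read 206, 187 and 198 CPM in NRF2 cells with romidepsin, against 264, 262 and 270.0 CPM in EV cells with romidepsin. With DMSO it read 278, 303 and 314 CPM in NRF2 cells, against 380, 356 and 375 CPM in EV cells. It was lower in NRF2 cells in both settings (log2 -0.43 ± 0.05 and -0.31 ± 0.05; edgeR adjusted p = 3.2e-06 and 9.6e-05). Pdhb, the E1 beta subunit, was higher in both (log2 0.48 ± 0.06 and 0.30 ± 0.06; edgeR adjusted p = 7.9e-06 and 0.0012). Dlat, the acetyltransferase core, was lower with romidepsin and with DMSO (log2 -0.32 ± 0.05 and -0.15 ± 0.05; edgeR adjusted p = 7.2e-05 and 0.024). Pdk3, a further kinase, was likewise lower with romidepsin and with DMSO (log2 -0.25 ± 0.06 and -0.55 ± 0.07; edgeR adjusted p = 0.0039 and 5.0e-06). Pdk2 was higher with romidepsin (log2 0.58 ± 0.09; edgeR adjusted p = 3.8e-05) and read 0.29 ± 0.12 log2 with DMSO (edgeR adjusted p = 0.077). Pdp2, a further phosphatase, read -0.04 ± 0.07 log2 with romidepsin (edgeR adjusted p = 0.67) and was lower with DMSO (log2 -0.37 ± 0.07; edgeR adjusted p = 3.2e-04).

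Of 12 genes that feed or drain the cycle, 11 were tested (Pck1 was not). Romidepsin raised 6 and lowered 3 in NRF2 cells, and raised 4 and lowered 5 in EV cells, beside the same shares of all genes as for pyruvate entry. Pck2, the mitochondrial enzyme that turns oxaloacetate into phosphoenolpyruvate, read 34.2, 34.8 and 35.3 CPM in NRF2 cells with romidepsin, against 158, 171 and 113 CPM with DMSO. EV cells had 36.2, 35.5 and 36.0 CPM with romidepsin, against 147, 145 and 156 CPM with DMSO. It fell 4.25-fold in NRF2 cells and 4.16-fold in EV cells (log2 -2.09 ± 0.12 and -2.06 ± 0.12; edgeR adjusted p = 1.1e-08 and 1.6e-08). Got1, cytosolic aspartate aminotransferase, rose 1.44-fold in each line (edgeR adjusted p = 2.3e-07 in NRF2 cells and 2.8e-07 in EV cells). Gls2, which makes glutamate from glutamine, rose 2.20-fold in NRF2 cells and 1.58-fold in EV cells (edgeR adjusted p = 5.9e-09 and 4.8e-06). Acly, ATP citrate lyase, rose by 0.41 ± 0.06 log2 in NRF2 cells (edgeR adjusted p = 3.4e-06) and read 0.05 ± 0.06 log2 in EV cells (edgeR adjusted p = 0.42). Me2, mitochondrial malic enzyme, fell by 0.39 ± 0.05 on the log2 scale in NRF2 cells and by 0.48 ± 0.05 in EV cells (edgeR adjusted p = 7.6e-07 and 8.5e-08).

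For NRF2 against EV, 4 of these 11 rose with romidepsin, and 4 rose and 4 fell with DMSO, again beside those shares. Me1, the cytosolic malic enzyme that makes NADPH and a known NRF2 target, read 165, 153 and 168 CPM in NRF2 cells with romidepsin, against 104, 102 and 99.97 CPM in EV cells with romidepsin. With DMSO it read 144, 152 and 145 CPM in NRF2 cells, against 116, 116 and 115 CPM in EV cells. The groups did not overlap, and Me1 was higher by 1.59-fold with romidepsin and 1.27-fold with DMSO (log2 0.67 ± 0.05 and 0.35 ± 0.05; edgeR adjusted p = 6.5e-09 and 1.2e-05). With romidepsin, Me2, Glud1 (glutamate dehydrogenase) and Got1 were higher in NRF2 cells (log2 0.33 ± 0.05, 0.25 ± 0.05 and 0.22 ± 0.06; edgeR adjusted p = 4.0e-05, 4.1e-04 and 0.0055). They were also higher with DMSO (log2 0.24 ± 0.05, 0.14 ± 0.05 and 0.22 ± 0.06; edgeR adjusted p = 7.9e-04, 0.032 and 0.0069). The Got1 groups overlapped with DMSO, at 136 to 166 CPM in NRF2 cells, against 126 to 138 CPM in EV cells. With DMSO, Gls2, Aco1 (cytosolic aconitase) and Acly were lower, by 0.61 ± 0.10, 0.35 ± 0.06 and 0.27 ± 0.06 on the log2 scale (edgeR adjusted p = 1.3e-04, 2.1e-04 and 0.0011). With romidepsin these 3 read -0.13 ± 0.09, 0.07 ± 0.06 and 0.08 ± 0.06 log2 (edgeR adjusted p = 0.25, 0.34 and 0.25).

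Carriers of the inner mitochondrial membrane were likewise split: 7 of 8 listed were tested (Slc25a18 was not), and romidepsin raised 3 and lowered 2 in NRF2 cells and raised 4 and lowered 3 in EV cells, beside those shares of all genes. Slc25a11, the 2-oxoglutarate/malate carrier of the malate-aspartate shuttle, read 168, 170.1 and 166 CPM in NRF2 cells with romidepsin, against 77.6, 79.2 and 66.7 CPM with DMSO. EV cells gave 165, 162 and 165 CPM with romidepsin, against 76.9, 80.2 and 82.9 CPM with DMSO. It rose 2.25-fold in NRF2 cells and 2.05-fold in EV cells (edgeR adjusted p = 1.8e-12 and 1.4e-11). Of the aspartate/glutamate carriers of that shuttle, Slc25a12 rose by 0.65 ± 0.05 log2 in NRF2 cells and 0.69 ± 0.05 log2 in EV cells (edgeR adjusted p = 4.2e-09 and 3.0e-09). Slc25a13 fell by 0.79 ± 0.06 and by 0.59 ± 0.06 on the log2 scale (edgeR adjusted p = 5.0e-10 and 2.6e-08). Slc25a1, the citrate carrier, rose by 0.75 ± 0.07 log2 in NRF2 cells and 0.45 ± 0.07 log2 in EV cells (edgeR adjusted p = 1.3e-08 and 1.1e-05). Slc25a22, a glutamate carrier, read -0.09 ± 0.06 log2 in NRF2 cells (edgeR adjusted p = 0.18) and fell by 0.53 ± 0.06 on the log2 scale in EV cells (edgeR adjusted p = 3.3e-07). For NRF2 against EV, 2 carriers rose and 2 fell with romidepsin, and 1 fell with DMSO, beside the shares of all genes given for pyruvate entry. Slc25a22 and Slc25a1 were higher with romidepsin (log2 0.41 ± 0.06 and 0.33 ± 0.07; edgeR adjusted p = 3.7e-05 and 5.5e-04), and Slc25a13 and Slc25a51, a carrier of NAD, were lower (log2 -0.35 ± 0.06 and -0.13 ± 0.05; edgeR adjusted p = 9.6e-05 and 0.036). With DMSO the carrier that fell was Slc25a13 (log2 -0.15 ± 0.05; edgeR adjusted p = 0.038). The Slc25a51 call and the Slc25a13 call with DMSO were each lost with DESeq2 (DESeq2 adjusted p = 0.053 and 0.059) and without several single libraries.

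Copies related to the members were mostly low. Of Csl, Mdh1b, Ogdhl, Dhtkd1 and Idh1, the first 2 were not tested: Csl reached at most 0.0606 CPM and Mdh1b 0.342 CPM in any library. All 3 tested copies rose with romidepsin in both lines, where 40.5% of all genes rose in NRF2 cells and 39.1% in EV cells. Dhtkd1, a relative of Ogdh that acts on 2-oxoadipate, rose 1.87-fold in NRF2 cells and 1.77-fold in EV cells (edgeR adjusted p = 6.6e-06 and 1.8e-05). Idh1, the cytosolic NADP-dependent enzyme, rose 1.26-fold and 1.37-fold (edgeR adjusted p = 0.0050 and 7.2e-04), whereas its mitochondrial counterpart Idh2 was lower in NRF2 cells and not called in EV cells. Ogdhl, a relative of Ogdh, rose 1.30-fold and 1.40-fold (edgeR adjusted p = 0.0050 and 0.0012). For NRF2 against EV it was the 1 copy called of the 3 tested, beside the shares of all genes given for pyruvate entry. Ogdhl was higher by 0.31 ± 0.11 log2 with romidepsin and 0.42 ± 0.12 log2 with DMSO (edgeR adjusted p = 0.028 and 0.0095). Its groups overlapped with DMSO, at 11.51 to 14.92 CPM in NRF2 cells, against 8.94 to 11.59 CPM in EV cells. The call with romidepsin was lost without EV cells with romidepsin, replicate 2, or NRF2 cells with romidepsin, replicate 2 or 3. The call with DMSO was lost without replicate 2 of either DMSO group.

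Ratios between members, which do not depend on library scaling, were tested across both lines or both treatments by exact two-sided permutation of the libraries within the other factor (400 arrangements, smallest p of 0.005; 6 ratio tests, Benjamini-Hochberg adjusted). The log2 ratio of Pcx to Cs counts was -1.21 to -1.14 in NRF2 cells with romidepsin, -2.21 to -2.13 in EV cells with romidepsin, -3.38 to -3.19 in NRF2 cells with DMSO and -4.44 to -4.26 in EV cells with DMSO. It was higher by 2.14 with romidepsin and by 1.01 with NRF2, both at the smallest p (exact permutation p = 0.005, adjusted 0.01). In each line every romidepsin library lay above every DMSO library, and with each treatment every NRF2 library lay above every EV library. The members were listed with earlier results of these data known, so the pairs tested were not chosen blind to them.

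The log2 ratio of Idh2 to Idh3a was -0.02 to 0.01 in NRF2 cells with romidepsin, 0.10 to 0.16 in EV cells with romidepsin, 0.65 to 0.79 in NRF2 cells with DMSO and 0.75 to 0.80 in EV cells with DMSO. It differed by -0.68 with romidepsin (exact permutation p = 0.005, adjusted 0.01) and by -0.10 with NRF2 (exact permutation p = 0.015, adjusted 0.0225). Romidepsin libraries did not overlap DMSO libraries, whereas NRF2 and EV libraries overlapped with DMSO. The log2 ratio of Mdh1 to Mdh2 was -1.858 to -1.768 in NRF2 cells and -1.948 to -1.865 in EV cells with romidepsin. With DMSO it was -1.817 to -1.654 in NRF2 cells and -1.857 to -1.760 in EV cells. EV cells with romidepsin thus lay just below all other libraries, and the other groups overlapped. This ratio differed by 0.09 with NRF2 (exact permutation p = 0.02, adjusted 0.024) and by -0.07 with romidepsin (exact permutation p = 0.075, adjusted 0.075). The NRF2 call was lost without EV cells with DMSO, replicate 2 or 3 (adjusted exact permutation p = 0.06 each), or NRF2 cells with DMSO, replicate 2 (0.066). The romidepsin difference was called without NRF2 cells with DMSO, replicate 3 (adjusted exact permutation p = 0.0075).

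**Figure D4:**
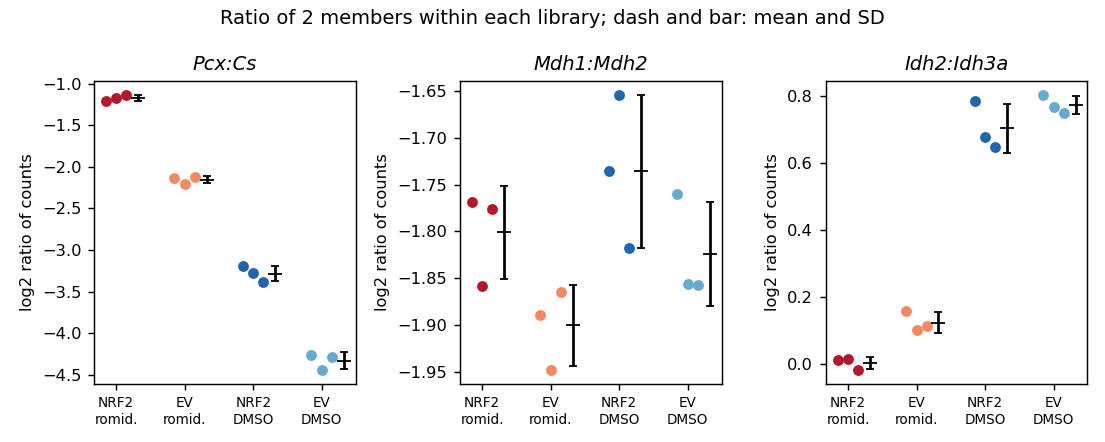
Log2 ratios of member counts in each of the 12 libraries by group, for Pcx to Cs, Mdh1 to Mdh2 and Idh2 to Idh3a. Pcx to Cs steps down from about -1.17 on average in NRF2 cells with romidepsin to -4.33 in EV cells with DMSO. Idh2 to Idh3a separates by treatment. Mdh1 to Mdh2 lies just below all other libraries in EV cells with romidepsin and overlaps between the other groups.

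Levels of different genes were compared only per kilobase of exon. Pcx had 42.1 CPM per kb of exon union in NRF2 cells with romidepsin, 21.5 in EV cells with romidepsin, 6.61 in NRF2 cells with DMSO and 3.54 in EV cells with DMSO. It was the lowest of the 9 members in both DMSO groups. In NRF2 cells with romidepsin it lay above Fh1 (20.5 CPM per kb), Suclg1 (33.5) and Idh3a (36.5). Per kb of the longest coding transcript it was 48.2 CPM in NRF2 cells with romidepsin, above Fh1 (26.3) and below Ogdh, Suclg1 and Idh3a, so its place in the middle depends on the length used. In EV cells with romidepsin Pcx and Fh1 were neighbours, at 21.5 ± 0.565 and 19.9 ± 0.0878 CPM per kb of exon union, and their order turned per kb of the longest transcript (24.6 and 25.6). Mdh2 was the highest in all 4 groups by both lengths, with 185, 196, 102 and 122 CPM per kb of exon union in the order above.

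**Figure D5:**
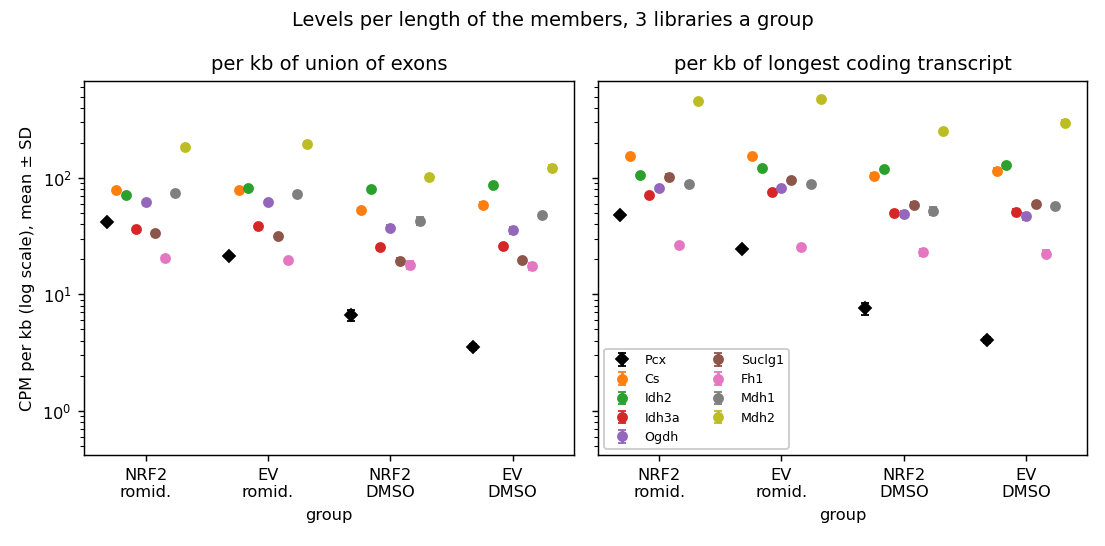
Levels of the 9 members per kilobase (log scale, mean ± SD of 3 libraries) in the 4 groups, on the left per kb of exon union and on the right per kb of the longest coding transcript. Pcx (diamonds) lies below all other members with DMSO and among them in NRF2 cells with romidepsin.

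The genes whose log2 CPM followed a member most closely over the 12 libraries were found by Pearson correlation among 9861 genes averaging 5 CPM or more, as a description, since the libraries fall into 4 groups and share those. Chka (r = 0.999), Anxa11, Tcea3 and Zfp729a (0.997 each) and Zfp385a (0.996) were nearest to Pcx, and 18.8% of the genes had r over 0.9 with it. Idh2 was followed by Cnn3 (0.986) and Tnc (0.979), with 2.27% of genes over 0.9, and its r with the other 8 members lay between -0.82 and -0.44. Fh1 was followed by Atp5c1 (0.963) and Nop10 (0.961), with 0.771% over 0.9. Nearest to Cs were Rras2 and Gchfr (0.996 each), and to Mdh2 Gchfr (0.997) and Trim41 (0.996). Idh3a was nearest to Skp1 and Coro1c (0.993 and 0.992), Ogdh to Btbd10 (0.996), Suclg1 to Sar1a and Lrp11 (0.997 and 0.996) and Mdh1 to Ecsit and Papss1 (0.996 and 0.995).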

How the data were processed

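Per the submitters' processing notes, reads were handled with bcl2fastq 2.19, kallisto 0.44.0 and DESeq2 (no version given) on GRCm38. The authors deposited kallisto estimated counts per gene symbol, rounded to whole numbers, for 12 libraries, and a second table of normalized signal, which equals the deposited estimated counts divided by 1 factor per library (largest relative deviation 5.2e-15). Of 35013 genes, 12331 had no count. kallisto divides reads shared by near-identical genes, which affects their estimated counts. Positions come from GENCODE M21, joined by symbol (all 78 listed symbols matched once).

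Genes kept by edgeR's default filter (13502) were fitted in 1 quasi-likelihood model (edgeR 4.0.16, robust, R 4.3.3) with TMM factors and 1 coefficient per group (8 residual degrees of freedom), with two-sided tests and Benjamini-Hochberg adjustment over all genes, called under 0.05. The prior count was 0.125, and the SE of a log2 fold change is the absolute value over the square root of F. Alternatives used limma 3.58.1, DESeq2 1.42.0, other scalings and filters, a replicate block, fits of 2 groups alone and each library left out. The pipeline was checked on simulated data. No pair of replicates agreed within counting noise (chi-square per degree of freedom 2.34 or more), so none was merged as a repeat reading of 1 library. All 12 were counted. This check cannot show that they came from separate cultures. A count of 0 allows up to 0.107 to 0.178 CPM (3 counts), for counting error only.

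The members and lists were chosen with earlier results of these data known. Named with values were the members, Nfe2l2, and from each list up to 4 called genes with the largest change and a mean of at least 1 CPM, otherwise the 2 most abundant, plus the largest called gene against the majority. The subunits of cycle enzymes and the ratios of their counts were described in addition, chosen after their values were seen. The nearest 5 genes to Pcx and 2 to each other member were named by correlation, leaving out predicted genes and pseudogenes. Some genes of the lists are not reported here.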

Additional observations from a re-analysis of the deposited data

Results flagged for a closer look

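The effect of romidepsin in NRF2 cells minus that in EV cells was called for 9 genes around the cycle, and for none of the 9 members. Positive calls were 2 of 11 pyruvate entry genes, 4 of 11 that feed or drain the cycle and 2 of 7 carriers. The 1 negative call was among the 10 further subunits, and 0 of 3 related copies were called. Of all genes tested, 5.53% had a positive and 10.2% a negative interaction. Suclg2 fell more in NRF2 cells, by a further 0.51 on the log2 scale (value -0.51 ± 0.10; edgeR adjusted p = 0.0018). Me1 rose with romidepsin in NRF2 cells (log2 0.14) and fell in EV cells (log2 -0.18), a difference of 0.32 ± 0.06 (edgeR adjusted p = 0.0024). Aco1 read -0.01 log2 in NRF2 cells and -0.43 log2 in EV cells, a difference of 0.42 ± 0.09 (edgeR adjusted p = 0.0029). Slc25a22 read -0.09 log2 in NRF2 cells and -0.53 log2 in EV cells, a difference of 0.44 ± 0.08 (edgeR adjusted p = 0.0018). Acly read 0.41 log2 in NRF2 cells and 0.05 log2 in EV cells, a difference of 0.36 ± 0.08 (edgeR adjusted p = 0.0058). These 5 calls held under every alternative run.

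The other 4 were lost in some alternatives. Gls2 differed by 0.48 ± 0.13 log2 (edgeR adjusted p = 0.022), Pdp2 by 0.33 ± 0.09 (0.024), Pdk3 by 0.30 ± 0.09 (0.032) and Slc25a1 by 0.30 ± 0.10 (0.041), all edgeR adjusted p. Without single libraries their edgeR adjusted p reached 0.0651, 0.0675, 0.0926 and 0.115 in the same order. With the replicate number as a block, the Slc25a1 call was lost (edgeR adjusted p = 0.0726), as it was with limma-voom (limma adjusted p = 0.0509). The Pdp2 call was lost with no filter on low counts (edgeR adjusted p = 0.0595).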

How the results depend on the processing

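Scaling mattered most for Idh2. Upper-quartile and library-size scaling moved the all-gene median of the romidepsin comparisons to 0.122 and 0.131 log2 in EV cells and 0.124 and 0.155 log2 in NRF2 cells, and with both, 0 members in place of 1 were lower in NRF2 cells, while Idh2 in EV cells read 0.028 and 0.037 log2 and Dlst in NRF2 cells 0.0032 and 0.034 log2. With library-size scaling, and with DESeq2, 1 member had a positive interaction in place of 0 (Mdh2). For NRF2 against EV with DMSO, 2 members in place of 4 were lower with no filter and 1 with the groups compared alone; with romidepsin, 3 in place of 1 were lower with the groups alone. The cause was not tested.

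Signs turned where values were near 0. Ogdh, NRF2 against EV with romidepsin, read -0.0035 with upper-quartile scaling, -0.015 with library size, -0.0062 with no filter, -0.00024 with DESeq2, -0.00085 with limma-trend and -0.0047 with the groups alone. The Fh1 interaction read 0.00092 with RLE, 0.016 with library size and 0.00034 with limma-trend.

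Without each library in turn, the count of members lower with NRF2 ranged from 1 to 4 with DMSO and from 1 to 3 with romidepsin, members higher with romidepsin from 7 to 8 in each line, lower in EV cells from 0 to 1, and positive interactions from 0 to 1. Over all genes, positive interactions ranged from 465 to 921 and negative from 959 to 2127, the highest without NRF2 cells with DMSO, replicate 3. Log2 ranges were -0.0186 to 0.0146 for Ogdh and -0.00855 to 0.0466 for Mdh1 (NRF2 with romidepsin), -0.00637 to 0.0608 and -0.0153 to 0.0971 for Fh1 (NRF2 with romidepsin and with DMSO), -0.0723 to 0.0548 for the Fh1 interaction, -0.0531 to 0.00902 for Suclg1 (NRF2 with DMSO) and -0.0275 to 0.127 for the Pcx interaction. The Mdh1 to Mdh2 ratio ranged from 0.074 to 0.115 for NRF2 and from -0.0913 to -0.0504 for romidepsin.

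All 4 pairwise Pcx calls, and the romidepsin rises of Cs, Idh3a, Ogdh, Suclg1, Mdh1 and Mdh2, held under every alternative. Same-numbered libraries did not deviate together (18 correlations, -0.123 to 0.0625, 0 over 0.1); with the replicate number as a block the members' counts were 8 higher and 0 lower for romidepsin in EV cells and no member's call changed.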
